A study of Oryza sativa with 81 samples.

Results

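The 639 gene models described here open identifier block 06 of the rice (Oryza sativa) count table. The identifiers beginning OsR498G06 were sorted, 3197 in all, and the first 639 of them were taken, from OsR498G0611466500.01 at rank 1 to OsR498G0611757600.01 at rank 639. The whole table held 38714 gene models. The block was chosen by the number of its genes called different between the parental lines WFB and RFB in earlier results of these counts, so that difference is described here and not tested. The sources used here give no gene name or function for these identifiers, and ranks stand for the order of identifiers, not for distances.

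Total RNA came from field-grown plants of 9 lines. The hybrids were WY998 (WFB × R998), WY308 (WFB × R308), RY998 (RFB × R998), RY308 (RFB × R308) and WR (WFB × RFB), and the parents were WFB, RFB, R998 and R308. From each line there were 3 libraries of young seedlings, 3 of young panicles and 3 of filling panicles, 81 in all. Libraries were stranded and depleted of ribosomal RNA. The labels give no age, and whether replicates came from separate plants or plots is not said there. The p-values therefore measure only the spread between these libraries, which may be technical. The tissue labels could not be checked against marker genes, since the gene models carry no names.

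The panicle is the flower-bearing head of the rice plant. A young panicle forms floral organs, and a filling panicle holds grains that are laying down starch and storage protein. An F1 hybrid receives a haplotype from each parent. A gene that is transcribed from the haplotype of a single parent is therefore commonly found in the hybrid below that parent's level, while a hybrid of parents that share an allele commonly resembles both. Rice lines are known to differ in which genes they carry and to share stretches of chromosome through common ancestry.

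Libraries held 29054241 to 45765805 counts. Of the members, 1 had no count in any library and 370 had counts in every library. Between 462 and 493 members had a count in a young seedling library, 510 to 543 in a young panicle library and 502 to 617 in a filling panicle library. The library with 617 was R308 replicate 9. In earlier results of these data it stood apart together with RY308 replicate 8 and R998 replicate 9 in filling panicles and RY308 replicate 4 in young panicles. Values without these libraries are given where they changed a result.

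Transcription along the stretch covered a wide range of levels in every tissue. Measured as FPKM (fragments scaled to gene length and library size, as deposited), the members averaging at least 1 FPKM numbered 337 at the seedling stage, 396 in young panicles and 386 at filling. These were 52.7%, 62% and 60.4% of the members, against 43.7%, 52.2% and 51.6% of all gene models. The median member stood at 1.27, 3.37 and 2.84 FPKM in these tissues, against 0.392, 1.4 and 1.21 FPKM over all gene models. At least 100 FPKM was reached by 7, 25 and 15 members. The members took 0.905 ± 0.0742% of the counts of a young seedling library, 1.9 ± 0.0841% of a young panicle library and 2.43 ± 0.579% of a filling panicle library (SD, n = 27 each). With gene models whose identifiers carry block number 00 left out of the totals, these shares were 1.88 ± 0.054%, 2 ± 0.0855% and 2.64 ± 0.617%.

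**Figure D1:**
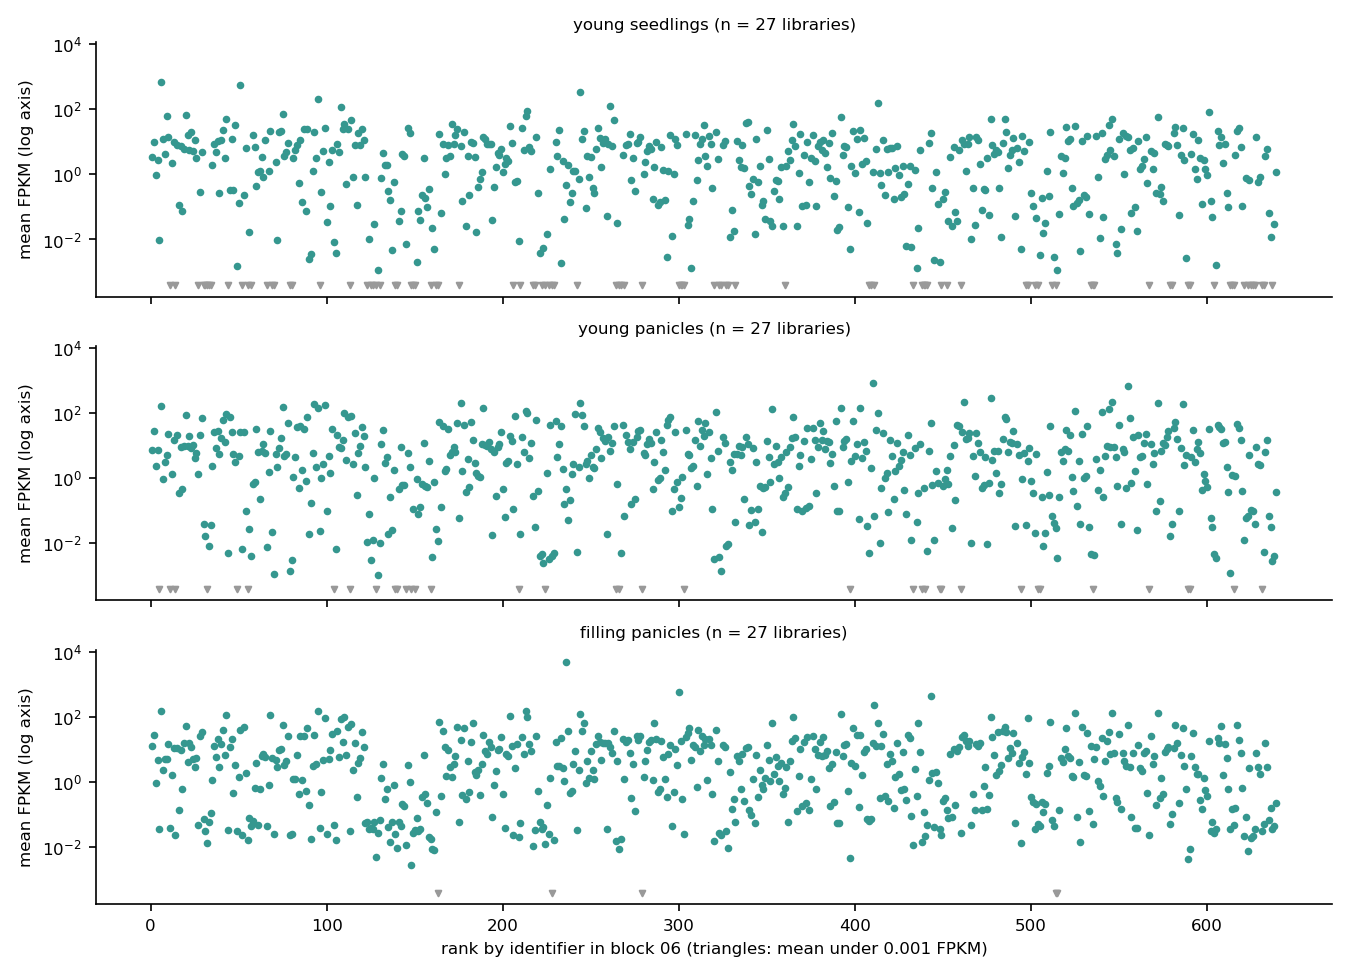
Mean FPKM of each member over the 27 libraries of a tissue (vertical log axis) against its rank in identifier order (horizontal axis), with a panel for each tissue and triangles for means under 0.001 FPKM. High and low members alternate along the whole stretch, and the filling panicle panel has a single point far above the rest, OsR498G0611577100.01 at rank 236 with 5039 FPKM.

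The most abundant members differed by tissue. In young seedlings OsR498G0611468200.01 (rank 6) stood highest at 681 ± 150 FPKM, with 170 ± 60.6 FPKM in young panicles and 155 ± 63.2 FPKM in filling panicles (SD, n = 27 each). OsR498G0611653300.01 (rank 410) led in young panicles at 863 ± 253 FPKM, with 1.16 ± 1.1 FPKM in young seedlings and 16.2 ± 7.5 FPKM in filling panicles. OsR498G0611577100.01 (rank 236) led in filling panicles at 5039 ± 2733 FPKM, from 1495 to 10620 FPKM over the 27 libraries, with 0.483 ± 0.251 FPKM in young seedlings. Each leader was therefore far from uniform over the tissues. At the end of the stretch, the last members OsR498G0611757300.01 and OsR498G0611757600.01 averaged 0.031 and 1.15 FPKM in young seedlings. The next identifiers outside it, OsR498G0611757800.01 and OsR498G0611758500.01, averaged 1.33 and 0 FPKM there.

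Nearly every member that could be tested differed between tissues, as did nearly every gene in the table. Differences between tissues and lines were tested on counts with edgeR's quasi-likelihood test, with p-values adjusted by the Benjamini-Hochberg method over all genes tested and 0.05 as the threshold. Young panicles had 233 of the 524 tested members higher and 206 lower than young seedlings, where 46.1% and 40% of all genes were higher and lower (86.1% together). Filling panicles had 240 higher and 214 lower than young seedlings (46.8% and 40% of all genes, 86.7% together). They had 236 higher and 227 lower than young panicles (42.7% and 43.3% of all genes, 86.1% together). At least 2-fold differences were seen for 49%, 51.1% and 38.4% of the members in these comparisons, against 52.5%, 51.2% and 41.4% of all genes. In whole tissue, fewer cells of a type and less RNA per cell cannot be told apart.

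The members named by size of difference were close to absent from a tissue. OsR498G0611575600.01 (rank 233) averaged 63.3 ± 10.8 CPM (counts scaled to library size, with sizes adjusted over the 81 libraries) in young panicles, against 0.00661 ± 0.0204 CPM in young seedlings (SD, n = 27 each). OsR498G0611601500.01 (rank 293) averaged 33.1 ± 10.8 CPM in young panicles, against 0.00469 ± 0.0135 CPM in young seedlings. The log2 differences were 13.3 (SE 0.18, adjusted p = 4.63e-48) and 12.42 (SE 0.22, adjusted p = 3.09e-43, edgeR). In the other direction OsR498G0611680000.01 (rank 475) averaged 0.0133 ± 0.0174 CPM in young panicles, against 9.37 ± 4.88 CPM in young seedlings, and OsR498G0611486100.01 (rank 54) averaged 0.085 ± 0.0549 CPM in young panicles, against 10.9 ± 2.3 CPM in young seedlings. Their log2 differences were -9.25 (SE 0.19, adjusted p = 2.26e-45) and -7.14 (SE 0.13, adjusted p = 2.84e-50).

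At grain filling OsR498G0611604200.01 (rank 300) averaged 319 ± 97.6 CPM and OsR498G0611653500.01 (rank 411) 307 ± 55.9 CPM, and neither had a count in any of the 27 young seedling libraries (SD, n = 27). Against young panicles, OsR498G0611577100.01 averaged 10660 ± 6227 CPM in filling panicles and 0.785 ± 2.91 CPM in young panicles, and OsR498G0611604200.01 averaged 0.058 ± 0.17 CPM in young panicles. Members that were lower at filling included OsR498G0611487900.01 (rank 58), at 0.0947 ± 0.211 CPM in filling panicles and 42.7 ± 9.57 CPM in young seedlings (log2 difference -9.57, SE 0.17, adjusted p = 2.33e-51, edgeR). OsR498G0611526800.01 (rank 142) averaged 0.0742 ± 0.103 CPM in filling panicles and 12.6 ± 4.7 CPM in young panicles (log2 difference -7.64, SE 0.22, adjusted p = 7.62e-40, edgeR).

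Members were counted where the fitted level was 8-fold or more above both other tissues, with adjusted p under 0.05 in both comparisons. They numbered 22 for young seedlings, 20 for young panicles and 23 for filling panicles. These were 4.2%, 3.82% and 4.39% of the 524 members tested, against 3.39%, 5.02% and 4.98% of all genes. The fitted level averages lines on the log2 scale, so the rule need not hold in each line. The filling panicle member OsR498G0611753600.01 averaged 20 CPM in R998 filling panicles, below 33.1 CPM in R998 young panicles. It averaged 9.94 CPM in R998 young seedlings, with library sizes adjusted within each tissue for these R998 values. The seedling members were spread from rank 6 to rank 622, the young panicle members from 27 to 575 and the filling panicle members from 69 to 630. Each group held some close neighbours. Seedling members lay at ranks 6, 7 and 9 and at ranks 143, 144, 146 and 147, and young panicle members at ranks 330 and 331 and at 409 and 410. Of the filling panicle members, OsR498G0611604200.01 was followed closely by 4 others, and OsR498G0611577100.01 lay beside OsR498G0611577400.01 at ranks 236 and 237. The 23 filling panicle members summed to 3791 to 27120 CPM in filling panicle libraries and to 55.2 to 96.8 CPM in young seedling libraries. In young panicle libraries they summed to between 73.6 and 119 CPM in 26 of 27 and to 211 CPM in WY998 replicate 6. Most of the filling panicle sum came from OsR498G0611577100.01: without it the other 22 summed to 928 to 2950 CPM in filling panicle libraries.

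WFB and RFB differed in many of the members, which is how the block came to be chosen. In young seedlings 73 of 431 members tested were called, 48 higher and 25 lower in WFB, beside 1.8% of all genes (0.834% higher and 0.967% lower). In young panicles 166 of 484 were called (97 higher and 69 lower in WFB, beside 21.5% of all genes, 11.1% higher and 10.4% lower), and in filling panicles 53 of 483 (38 higher and 15 lower, beside 0.71% of all genes, 0.391% higher and 0.32% lower). With a difference of at least 2-fold, 46, 85 and 46 members were called, beside 0.967%, 6.49% and 0.513% of all genes. Over all 3 tissues, 21 members were higher and 9 lower in WFB in every tissue among the 406 tested in each, beside 0.403% of the genes so tested. These values describe the contrast that chose the block and nothing is read from them.

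Within the stretch the WFB and RFB difference was uneven in identifier order. The members were split by rank into 10 bins of nearly equal size, and neighbouring bins were joined after their values were seen, so the joined ranges carry no test. In young seedlings, differences of at least 2-fold numbered 1 of 88 tested at ranks 1 to 127, 27 of 177 at ranks 128 to 383, 17 of 127 at ranks 384 to 575 and 1 of 39 at ranks 576 to 639. In filling panicles they numbered 2 of 91, 25 of 198, 18 of 151 and 1 of 43 in the same ranges. Within the third range, ranks 512 to 575 held 1 of 44 in young seedlings and 1 of 51 at filling. In young panicles the 4 ranges held 2 of 95, 44 of 201, 34 of 147 and 5 of 41. Over block 06 as a whole, the share called in young seedlings was 16.9% in the stretch, and 0.885%, 1.03%, 6.38% and 9.9% in the following quintiles of the block. At filling it was 11% in the stretch, and 0.809%, 0.298%, 2.34% and 4.59% after it. In young panicles it was 34.3% in the stretch, and 21.8%, 16.5%, 29.6% and 32.8% after it. The last quintile was thus close to the stretch in young panicles.

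**Figure D2:**
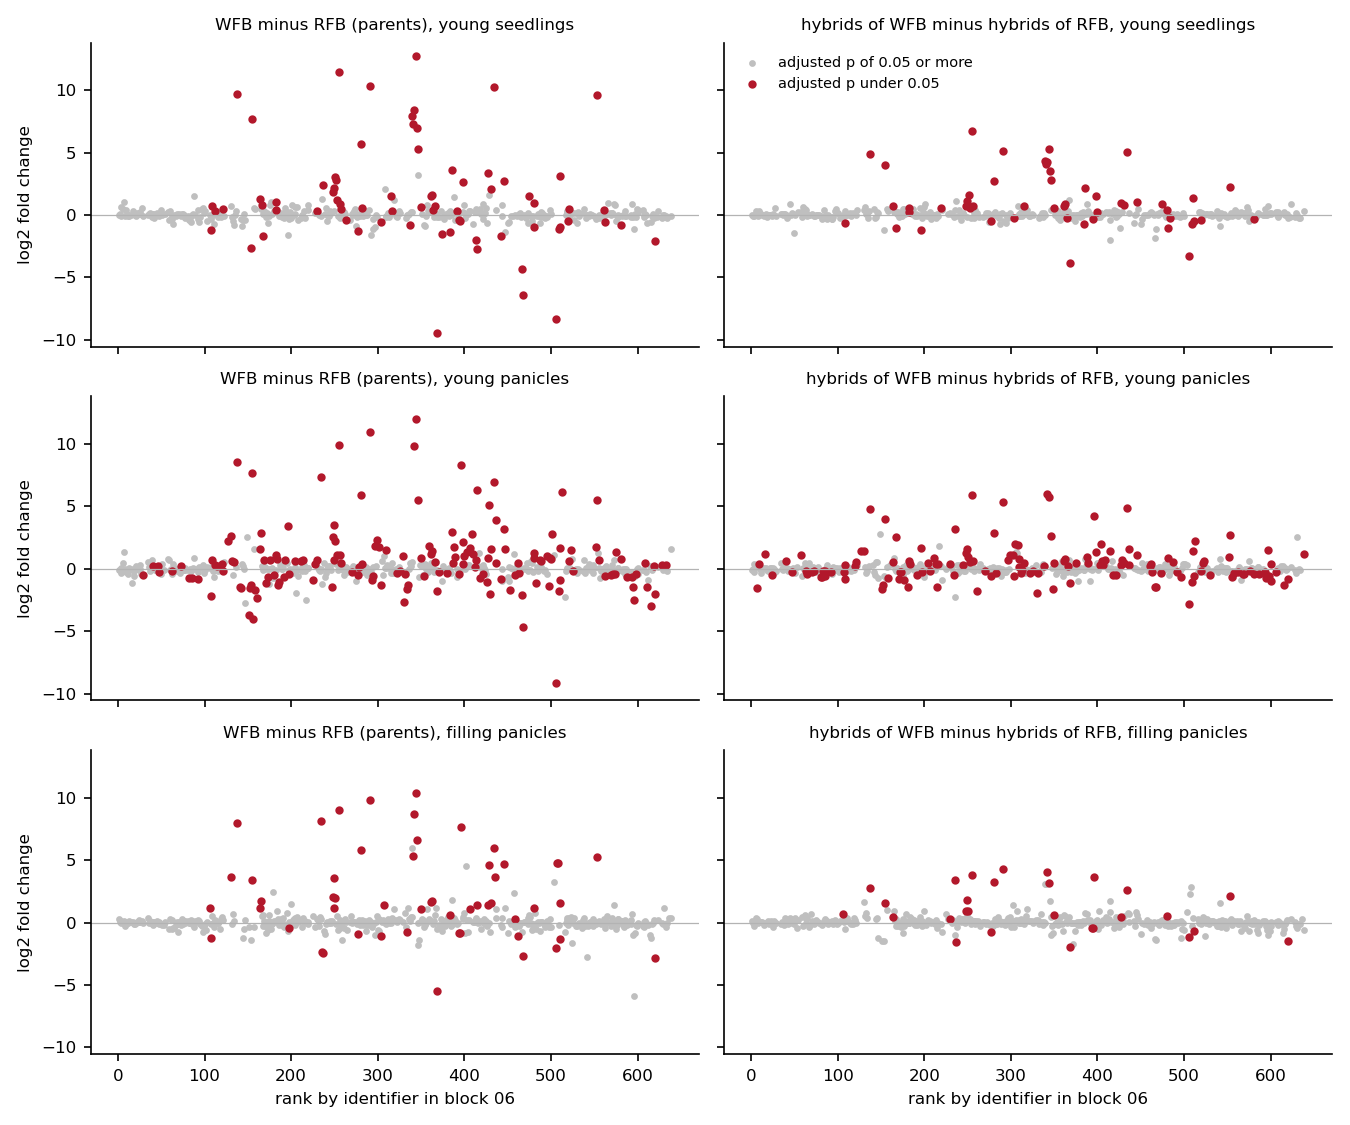
The log2 difference of each tested member against its rank in identifier order, in WFB minus RFB (parents) and in hybrids of WFB minus hybrids of RFB, for each tissue, with members called at adjusted p under 0.05 in red. Between WFB and RFB, 27 of 177 tested members at ranks 128 to 383 differ at least 2-fold in young seedlings and 25 of 198 in filling panicles, against 1 of 88 and 2 of 91 at ranks 1 to 127.

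The same contrast was taken in hybrids, whose libraries are other than those of WFB and RFB. These hybrids share R998 or R308 but differ in whether WFB or RFB was the other parent. In each fit all 27 libraries of a tissue set the spread. The hybrids' contrast is therefore not wholly separate from the parental calls. The mean of WY998 and WY308 was compared with the mean of RY998 and RY308, both taken on the log2 scale. In young seedlings 51 of 431 members were called, 35 higher and 16 lower in the WFB hybrids, while 2.14% of all genes were called (0.72% higher and 1.42% lower). In young panicles 148 of 484 were called (78 higher and 70 lower, with 20.1% of all genes, 11.3% higher and 8.86% lower), and in filling panicles 28 of 483 (20 higher and 8 lower, with 0.363% of all genes, 0.233% higher and 0.13% lower). The members' shares were thus 11.8%, 30.6% and 5.8%. In the last quintile of block 06 the shares were 6.52%, 27.8% and 1.67%. At least 2-fold differences made up 5.57%, 9.71% and 3.31% of the members and 0.399%, 3.16% and 0.166% of all genes.

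The members called between WFB and RFB were set beside the hybrids as a description. Of the 73 members called between WFB and RFB seedlings, 72 had the same sign in the hybrids and 46 were called there. Of the 166 in young panicles, 142 had the same sign, 93 were called with it and 3 were called with the opposite sign. All 53 in filling panicles had the same sign and 27 were called. Of all genes called between WFB and RFB, 97.2%, 80% and 97.2% had the same sign in the hybrids in the 3 tissues, beside 98.6%, 85.5% and 100% of the members. Those also called with that sign were 48.3%, 27.3% and 41.7% of all such genes and 63%, 56% and 50.9% of the members. Among these members the median parental difference was 1.51 log2 units in young seedlings, 1.02 in young panicles and, at filling, 2.04. The median hybrid difference in the parental direction was 0.73, 0.4 and 0.9 log2 units. These members were selected on the parental difference, so the medians do not compare its size with that of the hybrids. In the ranges of identifiers used above, the hybrids' calls of any size in young seedlings numbered 1 of 88, 30 of 177, 19 of 127 and 1 of 39. In filling panicles they numbered 1 of 91, 17 of 198, 9 of 151 and 1 of 43. In young panicles they numbered 23 of 95, 66 of 201, 45 of 147 and 14 of 41. These young panicle shares were 24.2%, 32.8%, 30.6% and 34.1%, so the last range was highest there.

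OsR498G0611538400.01 (rank 155) was higher in the WFB hybrids of young seedlings. On library sizes adjusted within the tissue, as in all comparisons of lines, it stood at 15.3, 16 and 14.1 CPM in WY998 and 7.35, 8.28 and 7.82 CPM in WY308. It stood at 6.72, 6.88 and 6.44 CPM in RY998 and 0.131, 0.0532 and 0 CPM in RY308. Members were named in these comparisons only if the libraries of the groups did not overlap, so that separation is a condition of naming. Here the WY308 and RY998 libraries lay close together (log2 difference 4.02, SE 0.18, adjusted p = 7.33e-13, edgeR). In CPM the WFB hybrids averaged 11.5 ± 4.05 and the RFB hybrids 3.37 ± 3.63 (SD, n = 6 each). The fitted difference averages lines on the log2 scale, so RY308 near 0 enlarges it and its size is no bound. OsR498G0611667500.01 (rank 446) was also higher, at 4.97, 4.11 and 5.38 CPM in WY998 and 6.3, 5.86 and 8.05 CPM in WY308, against 3.54, 2.39 and 3.15 CPM in RY998 and 2.85, 2.5 and 1.94 CPM in RY308. The log2 difference was 1.07 (SE 0.17, adjusted p = 6.75e-04, edgeR).

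OsR498G0611692400.01 (rank 511) was lower in the WFB hybrids. In young seedlings it stood at 29.2, 24.4 and 24.3 CPM in WY998 and 24.8, 25.7 and 22.7 CPM in WY308, against 34.8, 36.7 and 36.1 CPM in RY998 and 31.6, 35.8 and 35.1 CPM in RY308. The log2 difference was -0.48 (SE 0.05, adjusted p = 2.97e-06, edgeR). The WFB parent had 23.2, 25.6 and 24.5 CPM and RFB 45.1, 47.4 and 46.9 CPM. R998 had 23.4, 25.1 and 24.2 CPM and R308 23, 23.6 and 24.4 CPM. RFB thus stood above every other parent, and its hybrids lay between. The same order of parents was seen in young panicles, where RFB had 96.6, 97.8 and 95.5 CPM and no other parental library passed 51.7 CPM, and in filling panicles, where RFB had 184, 173 and 168 CPM and no other parental library passed 83.3 CPM. In filling panicles the hybrid difference was -0.63 log2 units (SE 0.08, adjusted p = 1.06e-04, edgeR).

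OsR498G0611682700.01 (rank 481) was lower in the WFB hybrids of young seedlings too, at 2.86, 3.97 and 3.32 CPM in WY998 and 3.23, 5.13 and 3.98 CPM in WY308, against 9.06, 10.2 and 7.25 CPM in RY998 and 6.04, 7.11 and 7.33 CPM in RY308 (log2 difference -1.06, SE 0.16, adjusted p = 4.73e-04, edgeR). In young panicles the members named as lower in the WFB hybrids were OsR498G0611588800.01 (rank 261) and OsR498G0611676000.01 (rank 467). The second of them stood at 1.43, 1.38 and 1.37 CPM in WY998 and 2.56, 2.34 and 2.12 CPM in WY308. It stood at 3.6, 3.64 and 3.66 CPM in RY998 and 7.03, 6.39 and 6.45 CPM in RY308 (log2 difference -1.44, SE 0.10, adjusted p = 1.48e-10, edgeR). As the naming rule required, every RFB hybrid library was higher than every WFB hybrid library.

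The members named as higher in the WFB hybrids of young panicles were OsR498G0611667500.01 (log2 difference 1.11, SE 0.16, adjusted p = 2.39e-05, edgeR) and OsR498G0611564900.01 (rank 211, log2 difference 0.84, SE 0.05, adjusted p = 5.07e-11). In filling panicles OsR498G0611596200.01 (rank 281) stood at 15.8, 16.9 and 14.8 CPM in WY998 and 13.1, 9.5 and 10.9 CPM in WY308. It stood at 8.27, 8.32 and 8.87 CPM in RY998 and 0.174, 0.399 and 0.135 CPM in RY308 (log2 difference 3.25, SE 0.16, adjusted p = 2.22e-11, edgeR). RY308 libraries were near 0 and RY998 libraries were not, so the size of this log2 difference is no bound. In CPM the WFB hybrids averaged 13.5 ± 2.89 and the RFB hybrids 4.36 ± 4.52 (SD, n = 6 each). OsR498G0611585600.01 (rank 251) was higher by 0.93 log2 units (SE 0.11, adjusted p = 2.15e-05) and OsR498G0611595200.01 (rank 277) lower by -0.72 log2 units (SE 0.13, adjusted p = 0.00851).

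R998 and R308, the parents on the other side of the 4 factorial crosses, were compared next. In young seedlings 119 members were called, 72 higher and 47 lower in R998, where 15.3% of all genes were called (7.44% higher and 7.89% lower). In young panicles there were 166 (98 higher and 68 lower, with 26.1% of all genes, 12.7% higher and 13.4% lower) and in filling panicles 139 (95 higher and 44 lower, with 22% of all genes, 11.9% higher and 10.1% lower). The members' shares were 27.6%, 34.3% and 28.8%. With the spread taken from R998 and R308 libraries alone, 50 members were called in filling panicles in place of 139. In young seedlings, at least 2-fold differences numbered 2 of 88 at ranks 1 to 127, 32 of 177 at ranks 128 to 383, 20 of 127 at ranks 384 to 575 and 5 of 39 at ranks 576 to 639. At ranks 576 to 639 they numbered 9 of 41 in young panicles and 7 of 43 at filling.

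The 4 parents gave 6 pairs, which had few called members at ranks 128 to 383 in some cases and many in others. The pairs share libraries, so they are set side by side and not tested against each other. In young seedlings, at least 2-fold differences were called for 4 of 177 members between WFB and R998 and for 4 between RFB and R308 (9.92% and 9.09% of all genes). Those called in WFB against RFB numbered 27 (0.967% of all genes). WFB against R308 gave 37, R998 against R308 gave 32, and RFB against R998 gave 33 (9.69%, 7.74% and 9.73% of all genes). At ranks 128 to 383 few members were thus called within the pairs WFB with R998 and RFB with R308. Several times more were called in each of the other pairs. The range was joined after its values were seen, so this contrast depends on where it ends and is a description. Between RFB and R308, at least 2-fold calls numbered 1 of 45 at ranks 320 to 383 and 10 of 43 at ranks 384 to 447. Between WFB and RFB, the contrast that chose the block, they numbered 10 in each of these bins. At ranks 384 to 575 the counts for WFB with R998 and RFB with R308 were unlike: 2 of 127 members were called between WFB and R998 and 21 between RFB and R308, beside 17 between WFB and RFB.

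In filling panicles, at ranks 128 to 383, differences of at least 2-fold numbered 4 of 198 in WFB against R998 and 13 in RFB against R308 (9.95% and 12.6% of all genes). WFB against RFB gave 25, WFB against R308 gave 37, R998 against R308 gave 37, and RFB against R998 gave 30 (0.513%, 14.2%, 9.86% and 9.98% of all genes). At ranks 384 to 575 they numbered 6 of 151 between WFB and R998 and 25 between RFB and R308. In young panicles, where all parental pairs differed in more genes, WFB and R998 had 15 of 201 at ranks 128 to 383, the fewest of the 6 pairs, and RFB and R308 had 24 (17% and 18.7% of all genes).

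Over the whole stretch, WFB and R998 differed in 51 members in young seedlings, 159 in young panicles and, at filling, 53, while 20.8%, 43.7% and 21.3% of all genes differed. The members' shares were 11.8%, 32.9% and 11%. RFB and R308 differed in 67, 212 and 119 members, while 18.9%, 49.6% and 28.5% of all genes differed, and the members' shares were 15.5%, 43.8% and 24.6%. WFB and R308 differed in 134, 207 and 184 (20.1%, 36.7% and 34.1% of all genes), and RFB and R998 in 116, 218 and 131 (19.9%, 41.8% and 20.8% of all genes). The count for WFB and R998 in young seedlings was 32 without WFB replicate 2, and in filling panicles it was 86 without R998 replicate 9. That filling panicle count was 92 without the libraries that stood apart. With the spread taken from the compared lines alone, WFB and R998 differed in 22 members in young seedlings and 28 at filling, and RFB and R998 in 76 at filling. The count for RFB and R308 in young seedlings was 40 without RFB replicate 3.

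With a difference of at least 2-fold, the members' shares in young seedlings, in young panicles and at filling were 2.78%, 10.7% and 3.52% in WFB against R998 (all genes 9.92%, 17% and 9.95%) and 6.03%, 13.6% and 9.52% in RFB against R308 (all genes 9.09%, 18.7% and 12.6%). They were 14.6%, 19.4% and 16.1% in WFB against R308 (all genes 9.69%, 14.8% and 14.2%) and 13.7%, 20% and 13.5% in RFB against R998 (all genes 9.73%, 14.8% and 9.98%). R998 against R308 gave 13.7%, 17.1% and 14.1% (all genes 7.74%, 10.1% and 9.86%). These shares were not tested against each other.

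**Figure D3:**
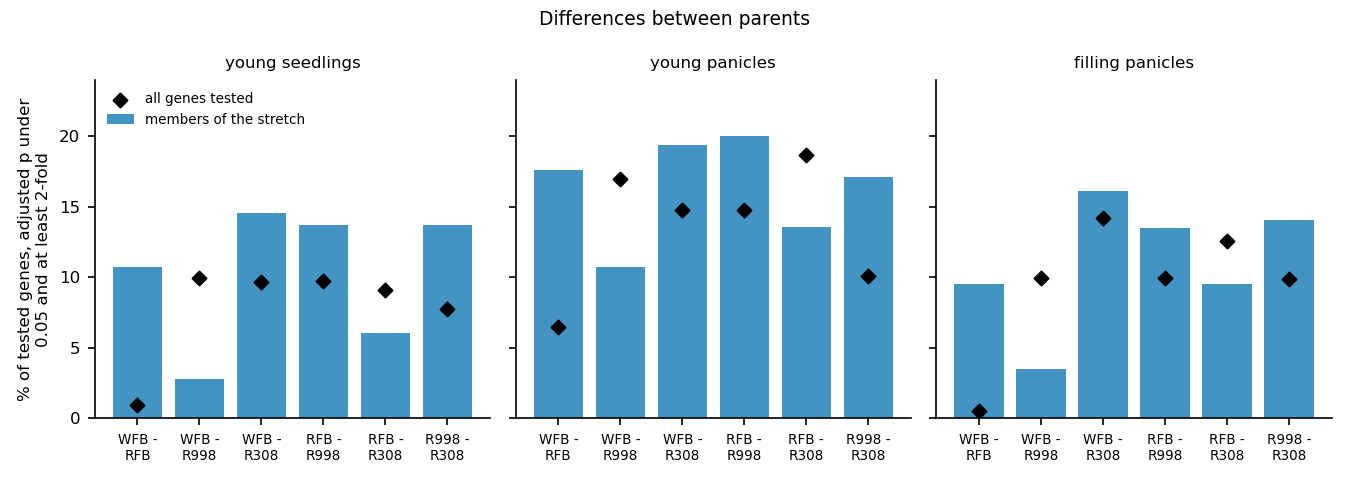
Share of tested members called with at least a 2-fold difference (bars, percent) in each of the 6 pairs of parents in each tissue, with the share of all genes as diamonds. The bars of WFB minus R998 lie below their diamonds in every tissue (2.78%, 10.7% and 3.52% against 9.92%, 17% and 9.95%), and those of WFB minus RFB lie above theirs (10.7%, 17.6% and 9.52% against 0.967%, 6.49% and 0.513%).

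A group of members followed presence and absence in the parents. Taking at least 1 CPM on average as present and under 0.1 CPM as absent, 8 seedling members, 7 young panicle members and 5 filling panicle members were present in WFB and R998 and absent from RFB and R308. The opposite pattern, present in RFB and R308 and absent from WFB and R998, was seen for 1, 0 and 1 members. Presence in R998 alone was seen for 1 member in young seedlings and 1 in young panicles, in R308 alone for 1 in young seedlings, and in WFB and RFB for 1 in young seedlings. All 4 parents had 311, 363 and 365 members and no parent had 176, 130 and 73. The other 140, 138 and 195 members lay between the limits in at least 1 parent. These patterns were not counted over all gene models, so the counts do not show whether any pattern is more common in the stretch than elsewhere.

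OsR498G0611586900.01 (rank 255) was the most abundant of those present in WFB and R998. In young seedlings WFB had 40.7, 33.6 and 38.3 CPM and RFB 0, 0.0312 and 0 CPM. R998 had 32.2, 37.5 and 37.2 CPM and R308 0, 0.0247 and 0 CPM. WY998, whose parents both had it, stood at 39.5, 38.4 and 37.8 CPM, within the parental range. The hybrids with it from a single parent stood lower and close together, at 21.1, 19.5 and 21.2 CPM in WY308, 19.2, 19.3 and 22.4 CPM in RY998 and 21, 22.4 and 19.3 CPM in WR. RY308, whose parents lacked it, had no count. In filling panicles RY308 had 0, 0.731 and 0 CPM and WY998 53.3, 44.8 and 47.6 CPM.

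OsR498G0611600600.01 (rank 291) followed the same order. In young seedlings it stood at 3.95, 4.78 and 4.69 CPM in WFB and at 4.83, 4.34 and 4.81 CPM in R998, and no library of RFB, R308 or RY308 had a count. Against a floor of 3 counts over a group of 3 libraries, it was at least 158-fold higher in WFB than in RFB and at least 175-fold higher in R998 than in R308. In filling panicles it stood at 20.4, 17.3 and 17 CPM in R998 with no count in R308, at least 626-fold higher in R998. WY998 had 6.01, 4.08 and 4.62 CPM in young seedlings, WY308 2.26, 3.18 and 2.04 CPM, RY998 2.68, 2.58 and 3.12 CPM and WR 2.92, 2.69 and 3.37 CPM. The hybrids of a single parent with the transcript all lay below WY998.

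OsR498G0611632100.01 (rank 368) was the member with the opposite pattern. In young seedlings it stood at 2.43, 2.74 and 2.3 CPM in RY308, 1.4, 1.17 and 1.13 CPM in WY308, 1.35, 1.34 and 1.17 CPM in RY998 and 0, 0 and 0.0281 CPM in WY998. RFB had 2.02, 2.53 and 2.69 CPM and R308 1.95, 2.45 and 2.13 CPM, while WFB and R998 had no count. It was at least 79.5-fold lower in WFB than in RFB and at least 66.2-fold lower in R998 than in R308. In young panicles it was no longer absent from WFB, at 1.48, 1.62 and 1.32 CPM, against 4.41, 5.13 and 5.36 CPM in RFB.

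Over all members with such a pattern, the hybrid level went with the number of parents that had the transcript. The median level of a hybrid relative to the mean of the parents with the transcript was 0.984 in young seedlings, 0.919 in young panicles and, at filling, 1.05 where both parents had it. It was 0.514, 0.481 and 0.472 where a single parent had it, with ranges of 0.225 to 0.891, 0.079 to 1.06 and 0.358 to 1.24. Where neither parent had it the median was 0, 0 and 0.00767 relative to the parents outside the cross. The members are few (12, 8 and 6 in the 3 tissues) and several lie close together in identifier order, so these medians are descriptions.

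**Figure D4:**
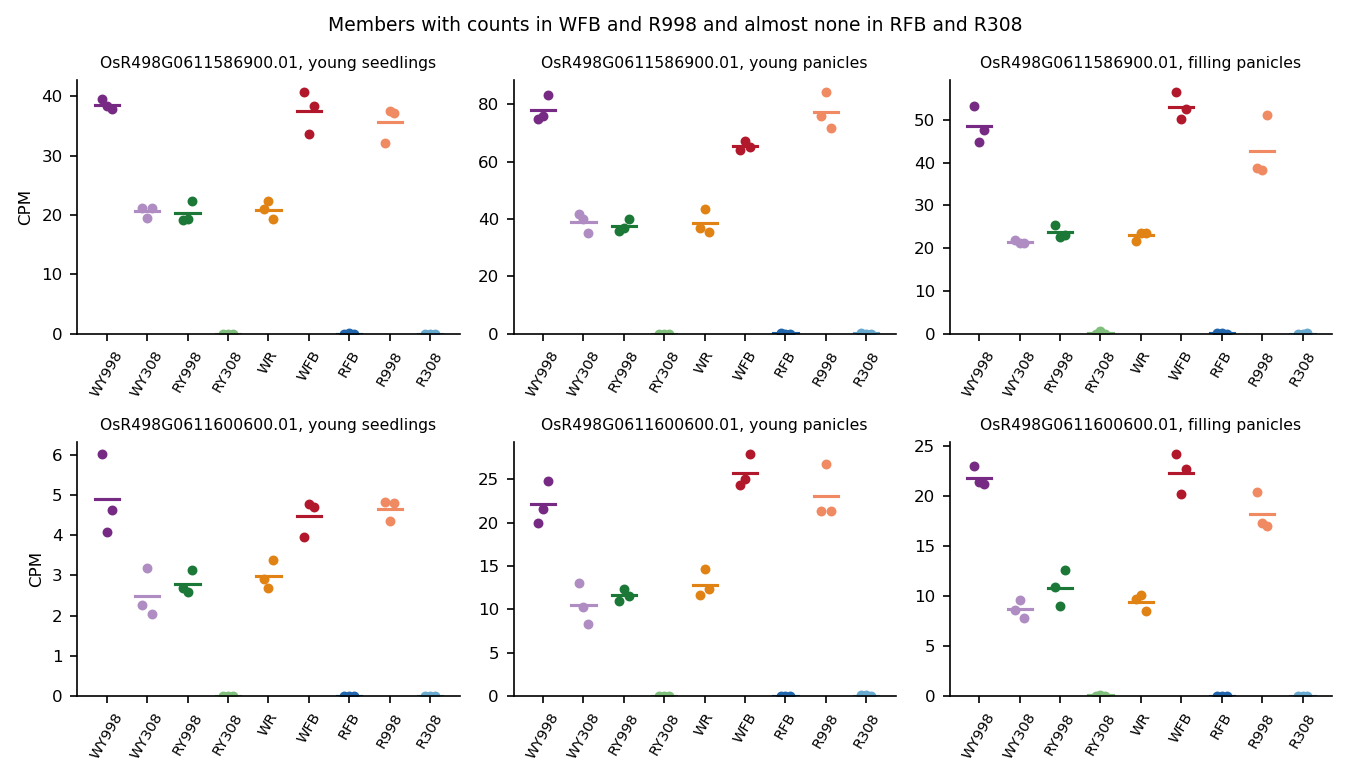
CPM in each library of OsR498G0611586900.01 and OsR498G0611600600.01 in the 9 lines (points, with the mean as a bar), with a panel for each tissue. WY998, WFB and R998 stand highest, WY308, RY998 and WR lie between, and RY308, RFB and R308 lie at or near 0 in every panel.

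A pair of members with counts in mainly 1 of the 4 parents was followed into the hybrids. OsR498G0611710100.01 (rank 542) had no count in R998 young seedlings and 5.04, 5.79 and 5.13 CPM in R308, at least 162-fold lower in R998. WY308 had 3.23, 2.69 and 3.31 CPM and RY308 3.43, 2.61 and 3.06 CPM, while WY998, RY998 and WR had at most 0.0269 CPM. OsR498G0611753600.01 (rank 630) went the other way in young panicles, with 31.4, 36 and 32 CPM in R998 and 0, 0.0313 and 0 CPM in R308. It stood at 15.1, 15.2 and 11.4 CPM in WY998 and 14.4, 16.9 and 16.7 CPM in RY998, and at no more than 0.4 CPM in WY308, RY308 and WR. The values separated the hybrids of R998 from those of R308 in young seedlings for OsR498G0611710100.01 and in young panicles for OsR498G0611753600.01. Both members were at 0 in WFB and RFB there, so they do not tell the hybrids of WFB from those of RFB.

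WFB and RFB together, against R998 and R308 together, were compared to ask how the WFB and RFB side of the crosses differs from the other. In young seedlings 43 members were higher and 42 lower, 19.7% of those tested, where 26.8% of all genes differed (14.6% higher and 12.3% lower). In young panicles 133 were higher and 89 lower (45.9%, against 50% of all genes, 25.8% higher and 24.2% lower), and in filling panicles 77 were higher and 78 lower (32.1%, against 38.8% of all genes, 20% higher and 18.9% lower). The median size of the difference was 0.17, 0.26 and 0.25 log2 units for members and 0.19, 0.28 and 0.29 for all genes. These shares were not tested against each other.

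OsR498G0611749700.01 (rank 624) was present on the first side and nearly absent from the second. In young panicles it stood at 19.6, 18.6 and 19.7 CPM in WFB and 15, 18.6 and 17.4 CPM in RFB, against 0, 0.0468 and 0 CPM in R998 and 0.0784, 0.188 and 0.19 CPM in R308 (adjusted p = 6.44e-20, edgeR). WR, the cross of WFB and RFB, had 17.3, 14.8 and 17.9 CPM. The 4 other hybrids lay between 6.15 and 10.9 CPM, below WFB and RFB and above R998 and R308 in every library.

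OsR498G0611650800.01 (rank 404) had the reverse order of parents in young panicles but another order of hybrids. WFB had 2.08, 2.34 and 2.14 CPM and RFB 2.12, 1.58 and 1.6 CPM, against 20, 19.5 and 18.6 CPM in R998 and 26.4, 27.2 and 25.2 CPM in R308 (log2 difference -3.52, SE 0.13, adjusted p = 2.78e-16, edgeR). WY998 had 19.3, 17.7 and 19.1 CPM, WY308 22.6, 24.6 and 17.9 CPM and RY998 15.4, 19.2 and 13.2 CPM, near R998 and R308. RY308 had 1.19, 1.89 and 1.99 CPM, near RFB and far below its other parent R308. In young seedlings the same member lay between 3.49 and 7.68 CPM in all 27 libraries.

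OsR498G0611588800.01 (rank 261) showed the mirror image of this in young panicles. WFB had 17.7, 21.7 and 15.4 CPM and RFB 27.6, 22.7 and 25.5 CPM, against 1.98, 2.79 and 1.8 CPM in R998 and 2.25, 3.88 and 1.87 CPM in R308 (log2 difference 3.15, SE 0.18, adjusted p = 1.54e-12, edgeR). RY308 stood at 21.5, 24.9 and 26.6 CPM, near RFB, while WY998 had 2.69, 4.18 and 5.26 CPM, WY308 3.91, 3.21 and 4.03 CPM and RY998 6.95, 7.34 and 7.13 CPM. In young seedlings this member was at 168 to 276 CPM in every library. OsR498G0611479000.01 (rank 40) fell in WFB and RFB by 1.16 log2 units (SE 0.05, adjusted p = 4.2e-15), and RY308 had 16.3, 16.1 and 14.6 CPM, near the 13.2, 13 and 15 CPM of RFB and below the 31.4, 35.3 and 33.9 CPM of R308.

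Members were also called between these sides at the other stages. In filling panicles OsR498G0611749700.01 averaged 9.11 ± 0.960 CPM in WFB and RFB, against 0.152 ± 0.328 CPM in R998 and R308 (SD, n = 6 each). The fitted log2 difference was 6.82 (SE 0.47, adjusted p = 7.14e-11, edgeR), a mean over lines on the log2 scale that is no bound. OsR498G0611603800.01 (rank 299) and OsR498G0611630700.01 (rank 362) rose in WFB and RFB seedlings by 1.51 (SE 0.32, adjusted p = 8.65e-04) and 1.04 log2 units (SE 0.14, adjusted p = 4.57e-06, edgeR). OsR498G0611633600.01 (rank 373) and OsR498G0611680700.01 (rank 477) fell by 0.65 (SE 0.11, adjusted p = 6.9e-05) and 0.40 log2 units (SE 0.08, adjusted p = 3.08e-04). In filling panicles OsR498G0611683600.01 (rank 483) rose by 1.59 log2 units (SE 0.21, adjusted p = 2.42e-06), and OsR498G0611490800.01 (rank 64) and OsR498G0611569000.01 (rank 219) fell by 1.24 (SE 0.13, adjusted p = 1.09e-07) and 0.82 log2 units (SE 0.10, adjusted p = 7.58e-07).

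WFB and R998 differed strongly in some members of these ranges. OsR498G0611662100.01 (rank 434) stood at 2.39, 2.78 and 2.83 CPM in WFB young panicles against 33.2, 39.1 and 35.5 CPM in R998 (log2 difference -3.75, SE 0.21, adjusted p = 8.94e-13, edgeR). In young seedlings the same lines did not separate, at 4.74, 4.08 and 4.1 CPM in WFB and 4.09, 3.49 and 4.33 CPM in R998. The young panicle hybrids WY308 and RY998, which have a single parent with the transcript, stood at 17.9, 24.6 and 19.1 CPM and at 17.4, 19 and 25.2 CPM. WY308 was thus above WFB, its parent with the transcript, while WR, with the same parent, had 1.31, 1.74 and 1.53 CPM.

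Between RFB and R308, members at the later ranks differed. OsR498G0611714100.01 (rank 554) stood at 19.6, 24.6 and 25 CPM in RFB young seedlings and 5.1, 5.64 and 5.83 CPM in R308 (log2 difference 2.06, SE 0.14, adjusted p = 6.41e-11, edgeR). Its near neighbour OsR498G0611713700.01 (rank 552) was higher by 1.72 log2 units (SE 0.24, adjusted p = 9.2e-06). OsR498G0611667500.01, at rank 446, was lower in RFB than in R308, by -2.98 log2 units in young seedlings (SE 0.28, adjusted p = 1.43e-08) and -4.75 in filling panicles (SE 0.37, adjusted p = 1.2e-09). In filling panicles it stood at 0.0708, 0.398 and 0.558 CPM in RFB and 10.8, 9.1 and 8.62 CPM in R308.

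The most abundant member at grain filling differed between lines. OsR498G0611577100.01 stood at 5860, 4180 and 3140 CPM in WY998, 5920, 14400 and 18400 CPM in WY308, 10800, 9510 and 9170 CPM in RY998, 27100, 22900 and 20200 CPM in RY308 and 17400, 14200 and 18300 CPM in WR. WFB had 3030, 3300 and 3890 CPM and RFB 19500, 17400 and 16500 CPM. R998 had 4950, 3190 and 8010 CPM and R308 11000, 17100 and 13500 CPM. Every RY308 library stood above every other library, and WFB, WY998 and R998 had the lowest means. WY308 replicate 7 lay at the level of WY998, far from the other WY308 libraries.

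Between R998 and R308 the difference in OsR498G0611577100.01 was -1.37 log2 units (SE 0.35, adjusted p = 0.00642, edgeR). It was -1.43 with an adjusted p of 0.17 when the spread was taken from R998 and R308 libraries alone. Its neighbour OsR498G0611577400.01 (rank 237) had the same order of lines at a far lower level, with 61.8, 55.2 and 40.4 CPM in RY308, 5.08, 5.06 and 8.51 CPM in WFB and 42.9, 28.2 and 27.5 CPM in RFB. Because the counting method is not given in the sources used here, reads shared by these neighbours cannot be told apart, and the value of the second is uncertain.

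**Figure D5:**
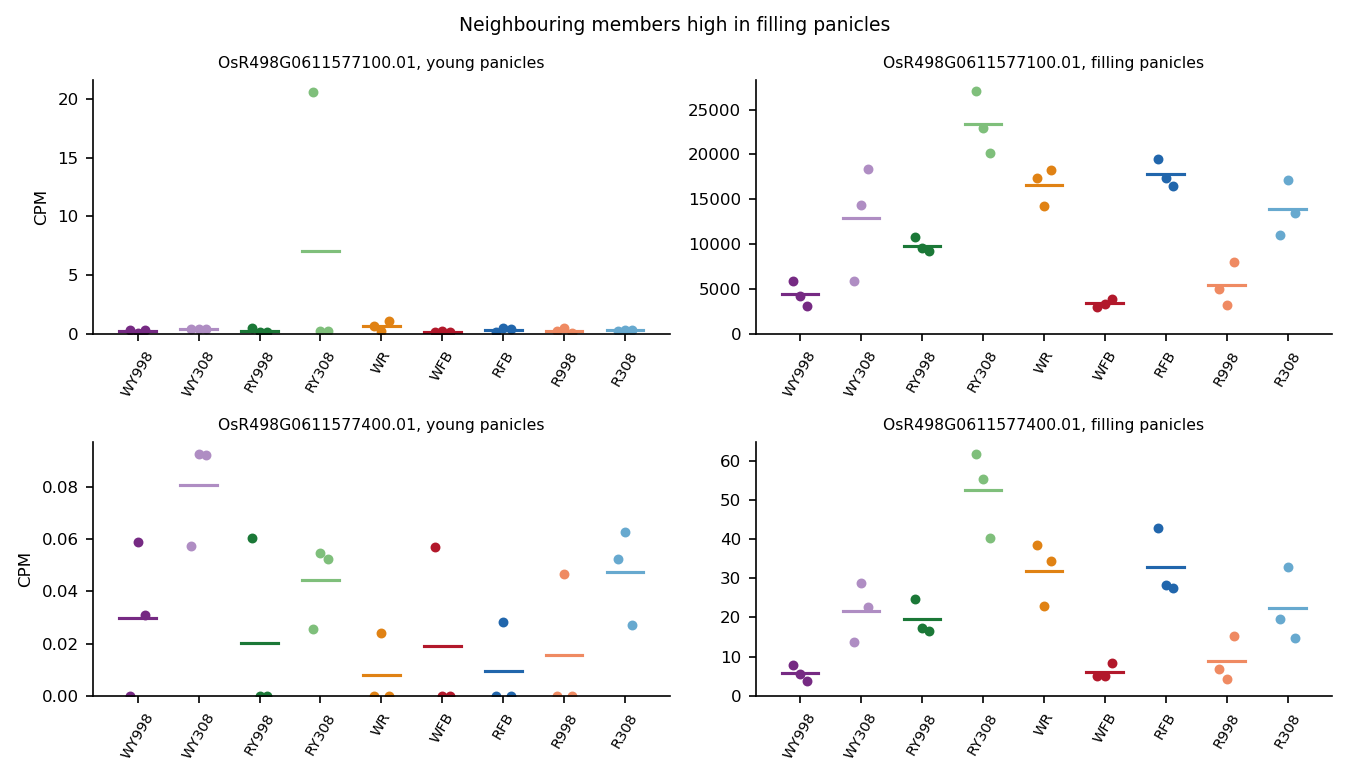
CPM in each library (points, with the mean as a bar, and a linear axis of its own in each panel) of OsR498G0611577100.01 and its neighbour OsR498G0611577400.01 in young panicles and filling panicles of the 9 lines. In filling panicles both have their highest mean in RY308 and their lowest means in WFB and WY998, and in young panicles a single RY308 library, replicate 4, stands at 20.6 CPM for the first of them.

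Hybrids lay close to the mean of their parents for most members. Among members with a parental mean of at least 5 CPM, the share within 1.5-fold of that mean was between 96% and 100% over the 5 crosses in young seedlings. It was 92.6% to 97.7% in young panicles and lay between 91.9% and 99% in filling panicles. For all genes of that level the lowest and highest shares were 90.5% and 98.1%. The median member deviated by no more than 0.045 log2 units in any cross. WR lay between its parents for 42 of the 46 members called at 2-fold or more between WFB and RFB in young seedlings, 67 of 85 in young panicles and 41 of 46 in filling panicles. These are 91.3%, 78.8% and 89.1% of the members, and the share was 87.2%, 32.5% and 93.8% of all genes so called, with no test of the difference.

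WY998 was set against its parents WFB and R998. Against WFB it differed in 11 members in young seedlings, 101 in young panicles and, at filling, 2 (8.7%, 26.5% and 3.72% of all genes). Against R998 it differed in 18, 80 and 31 (8.36%, 23.3% and 11.7% of all genes). The members' shares were 2.55%, 20.9% and 0.414% against WFB and 4.18%, 16.5% and 6.42% against R998. WY308 differed from WFB in 68, 152 and 142 members (12.2%, 26.9% and 28.8% of all genes) and from R308 in 45, 43 and 34 (6.52%, 5.17% and 3.45%).

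RY998 differed from RFB in 67, 201 and 125 members (11.3%, 42.2% and 17.7% of all genes) and from R998 in 74, 82 and 92 (14.3%, 15.6% and 18.8%). RY308, the cross of RFB and R308, differed from RFB in 35, 64 and 14 members (11.6%, 16.6% and 4.47% of all genes) and from R308 in 22, 175 and 94 (8.87%, 37.5% and 22%). WR differed from WFB in 81, 185 and 29 members (14.2%, 34.9% and 1.87%) and from RFB in 66, 45 and 25 (8.85%, 1.05% and 0.343%). All 25 of the last were higher in WR than in RFB, as were 0.221% of all genes. In young panicles WR thus stood nearer to RFB than to WFB in its number of differing members, as it did in all genes. By level, for members called at 2-fold or more between WFB and RFB there, WR lay a median of 0.434 of the way from RFB to WFB. For all genes so called the median was -0.122, on the far side of RFB.

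Members beyond both parents, higher or lower than each with adjusted p under 0.05 in both tests, were found in at least 1 cross for 18 members in young seedlings, 44 in young panicles and, at filling, 30. These were 4.18%, 9.09% and 6.21% of the members, where 7.1%, 10.1% and 6.87% of all genes met the rule. In young seedlings 13 of them belonged to WR (6.03% of all genes), 7 to RY998 (1.81%), 1 to RY308 (1.1%) and 0 to WY998 (0.289%) and WY308 (0.293%). In young panicles RY308 had 17 (2.76% of all genes), WY998 14 (2.93%), RY998 14 (5.25%), WY308 2 (0.21%) and WR 1 (0.509%). In filling panicles RY998 had 29 (6.16% of all genes), of which 22 were lower than both parents, and RY308 had 1 (0.529%), while WY998 (0.0947%), WY308 (0.296%) and WR (0.0908%) had 0. The young seedling count was 9 without RFB replicate 3.

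In filling panicles OsR498G0611547100.01 (rank 167) and OsR498G0611687600.01 (rank 495) lay below both parents in RY998. OsR498G0611547100.01 stood at 2.71, 4.37 and 2.65 CPM in RY998, against 16.6, 15.6 and 12.6 CPM in RFB and 10.8, 13.5 and 15.4 CPM in R998, which is 2.02 log2 units below the nearer parent (adjusted p = 3.54e-08, edgeR). WY308 had 3.41, 2.8 and 4.42 CPM, near its parent R308 with 2.5, 2.25 and 2.13 CPM and below WFB with 24.7, 22.1 and 21.2 CPM. RY308 had 16.4, 17.2 and 15.1 CPM and WY998 19.3, 21.3 and 25.3 CPM. The hybrids RY998 and WY308 were thus low and RY308 and WY998 high, without overlap. The share of all genes with this split was not counted, but 11.7% had a positive interaction (defined below) in filling panicles.

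OsR498G0611687600.01 gave the same split. RY998 had 2.62, 2.64 and 2.7 CPM, against 11.8, 11.3 and 9.36 CPM in RFB and 9.46, 15 and 14.2 CPM in R998 (adjusted p = 8.01e-09, edgeR). WY308 had 2.3, 2.31 and 2.39 CPM, WY998 8.6, 8.16 and 11.5 CPM and RY308 6.56, 7.77 and 8.53 CPM. Among the parents, R308 alone was low, at 3.04, 2.25 and 2.72 CPM. Above both parents in RY998 filling panicles lay OsR498G0611650800.01, by 0.995 log2 units (adjusted p = 0.00129), and OsR498G0611740700.01 (rank 601), by 0.86 log2 units (adjusted p = 0.0016). The second of these stood at 28.2, 31.1 and 30.5 CPM in RY998, 16.3, 18.5 and 13.5 CPM in RFB and 17.5, 18.7 and 13.3 CPM in R998.

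In young seedlings, WR was lower than both parents in OsR498G0611569000.01 (0.91 log2 units below the nearer parent, adjusted p = 0.00998, and 0.0519 without WR replicate 1) and in OsR498G0611714100.01 (0.61 log2 units, adjusted p = 0.00325). OsR498G0611488200.01 (rank 59) was higher in WR, at 10.9, 11.2 and 10 CPM, against 5.48, 4.99 and 5.06 CPM in WFB and 6.28, 7.39 and 6.28 CPM in RFB (adjusted p = 5.71e-04, edgeR). OsR498G0611557700.01 (rank 193) was higher in RY998 by 0.997 log2 units (adjusted p = 0.016). Its adjusted p was 0.0766 without RFB replicate 2, 0.0711 without RY998 replicate 2 and 0.0515 without RY998 replicate 3.

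In young panicles the members named as above both parents were called through single libraries. OsR498G0611547100.01 stood at 0.366, 0.824 and 35.7 CPM in WY998, the last being replicate 6, and at 0.234 to 1.25 CPM in WFB and R998 (3.59 log2 units above the nearer parent, adjusted p = 0.00534). Without that library the call was lost (adjusted p = 0.28). OsR498G0611577100.01 stood at 20.6, 0.192 and 0.236 CPM in RY308, the first being replicate 4, and without that library its value turned to -0.34 (adjusted p = 0.775). In WY998 replicate 6 the 23 filling panicle members summed to 211 CPM, the highest of the 27 young panicle libraries, and the part of this in its value was not tested. Below both parents lay OsR498G0611707700.01 (rank 539) in RY998, by 0.54 log2 units (adjusted p = 0.0205), and OsR498G0611716600.01 (rank 556) in WY998, by 0.46 (adjusted p = 0.0334). Without R998 replicate 4 the adjusted p was 0.0736 for the first of these and 0.0919 for the second, and other single libraries lost the calls too.

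The effect of WFB in place of RFB, measured on the log2 scale, depended on the other parent for some members. The interaction, taken as WY998 minus RY998 less WY308 minus RY308 on the log2 scale, was called for 12 members in young seedlings, all negative (0.0917% of all genes, 0.0871% negative and 0.00458% positive). It was called for 70 in young panicles, 29 positive and 41 negative (10.4% of all genes, 4.26% positive and 6.17% negative), and for 118 in filling panicles, 57 positive and 61 negative (21.8% of all genes, 11.7% positive and 10.1% negative). With the spread taken from the 4 hybrids alone, the young panicle count was 40. The members' shares were 2.78%, 14.5% and 24.4%. Where RY308 is at or near 0 and RY998 is not, this log2 term is strongly negative even if the differences in CPM are alike. In young seedlings OsR498G0611586900.01 differed by 18.3 CPM in WY998 minus RY998 and 20.6 CPM in WY308 minus RY308. For OsR498G0611623000.01 these were 5.2 and 16.5 CPM. A call alone therefore does not mean unlike differences in CPM. OsR498G0611547100.01 had a positive interaction in filling panicles (4.95, SE 0.26, adjusted p = 2.59e-12, edgeR), where WY998 averaged 18.7 CPM more than RY998 and WY308 12.7 CPM less than RY308.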

How the data were processed

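Read counts per gene model and FPKM were deposited by the authors for 81 libraries of total RNA. The deposited counts were whole numbers and not normalized. The submitters' processing notes name HISAT2, a read aligner. The sources used here give neither its version nor the counting tool, strand setting or genome build. FPKM as deposited lay within 1% of the count divided by gene length and library total for 100% of 1495142 values with at least 50 counts. Line differences were fitted per tissue over 27 libraries with a mean for each line, and tissue differences over 81 libraries with 27 groups, using edgeR 4.0.16 in R 4.3.3 (limma 3.58.1), filterByExpr, TMM library sizes, the quasi-likelihood test and Benjamini-Hochberg adjustment over all genes tested. DESeq2 1.42.0 served as an alternative. Summaries and figures used Python 3.11.15, pandas 2.3.3, numpy 2.4.6 and matplotlib 3.10.9. The test was tested on simulated data with 200 changed genes. Other alternatives were RLE size factors, no filter on low counts, leaving out block 00, a replicate block, only the groups compared and leaving out libraries.

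The members and lists were chosen with earlier results of these data known. Comparisons of WFB or RFB with R998 or R308 singly were added after seeing the data. Named members had adjusted p under 0.05, at least 5 CPM in the higher group and no overlap between the groups' libraries, and the 2 with the largest fold in each direction were taken per comparison. Members beyond both parents were the 2 farthest above and the 2 farthest below per tissue. Presence patterns were described outside this rule, chosen after their values were seen. No identifier (0) matched the 39387 genes of the RefSeq table of another assembly. Counting depth limits values near 0, and floors cover counting error only.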

Additional observations from a re-analysis of the deposited data

Results flagged for a closer look

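For 10 results the effect of WFB in place of RFB, on the log2 scale, differed between the hybrids with R998 and those with R308. The interaction term was tested (edgeR's quasi-likelihood test, Benjamini-Hochberg adjusted p). Values are log2 units of WY998 minus RY998 less WY308 minus RY308, with 3 libraries per hybrid.

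Of these, 6 were negative in members that RY308 held at or near 0, so that the fitted values depend on the prior count and are no bounds. OsR498G0611586900.01 had -11.59 in young seedlings (SE 0.38, adjusted p = 6.52e-14) and -9.80 in young panicles (SE 0.28, adjusted p = 8.34e-17). In CPM its differences were 18.3 in WY998 minus RY998 and 20.6 in WY308 minus RY308 in young seedlings, and 40.5 and 39 in young panicles. OsR498G0611623000.01 had -10.08 in young seedlings (SE 0.40, adjusted p = 1.3e-12) and OsR498G0611622000.01 -9.71 in young panicles (SE 0.54, adjusted p = 3.11e-11). Their CPM differences were 5.2 in WY998 minus RY998 and 16.5 in WY308 minus RY308 for OsR498G0611623000.01, and 7.38 and 6.54 for OsR498G0611622000.01. OsR498G0611662100.01 had -6.86 (SE 0.52, adjusted p = 9.97e-10) and OsR498G0611600600.01 -6.64 (SE 0.47, adjusted p = 1.12e-09) in filling panicles. In CPM, OsR498G0611662100.01 differed in opposite directions, by -3.32 between WY998 and RY998 and 6.48 between WY308 and RY308, and OsR498G0611600600.01 by 11 and 8.65.

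In young panicles OsR498G0611547100.01 had 4.63 (SE 1.48, adjusted p = 0.0474) and OsR498G0611606800.01 4.46 (SE 1.30, adjusted p = 0.0288). Without WY998 replicate 6 these were 0.28 (adjusted p = 0.789) and 0.74 (adjusted p = 0.396).

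In filling panicles OsR498G0611547100.01 had 4.95 (SE 0.26, adjusted p = 2.59e-12), with 18.7 CPM more in WY998 than in RY998 and a difference of -12.7 CPM between WY308 and RY308. OsR498G0611687600.01 had 3.53 (SE 0.24, adjusted p = 1.32e-10), with differences of 6.75 and -5.29 CPM.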

How the results depend on the processing

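Each of the 33 counts of called members stayed within 1.5 times its value under DESeq2, RLE size factors, no filter on low counts and without block 00. With only the groups compared, 5 of 27 counts moved: R998 minus R308 in filling panicles gave 50 (139 in the report), the interaction in young panicles 40 (70), WFB minus R998 22 (51) in young seedlings and 28 (53) in filling panicles, and RFB minus R998 in filling panicles 76 (131). Without the libraries that stood apart, WFB minus R998 in filling panicles gave 92. Leaving out single libraries gave 9 (without RFB replicate 3) to 26 members beyond both parents in young seedlings (18). It gave 32 (without WFB replicate 2) to 50 for WFB minus R998 in young seedlings, 36 to 86 (without R998 replicate 9) in filling panicles, and 40 (without RFB replicate 3) to 74 for RFB minus R308 in young seedlings. The cause was not tested.

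RLE size factors moved the median of all genes by 0.103 log2 units between filling panicles and young seedlings, and no scaling moved the share of higher calls by over 10 percentage points. Of 106 named results, 12 lost their call in some setting and 1 reversed: OsR498G0611577100.01 beyond both parents in RY308 young panicles, -0.338 without RY308 replicate 4 (up to 4.892 without RY308 replicate 6) and -0.338 without the libraries that stood apart. OsR498G0611664800.01, WFB minus RFB in young seedlings, is among those that lost a call.

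Same-numbered libraries did not deviate together (of 36 pairs of lines, all 3 correlations were over 0.1 for 2 in young seedlings, 0 in young panicles and 1 at filling), so numbers were not taken to pair samples. With the replicate number as a block, all 30 counts stayed within 1.5 times, for example 50, 140 and 27 members between the hybrids of WFB and of RFB and 116, 162 and 134 between R998 and R308. The block ended the young panicle interaction calls of OsR498G0611547100.01 (adjusted p = 0.11) and OsR498G0611606800.01 (adjusted p = 0.0599). The FPKM pseudocount alternative was not run, since no log2 FPKM is reported.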
